A study of Mus musculus with 5 samples.

Results

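The gene examined here is Gcg, which encodes proglucagon, together with the genes beside it on mouse chromosome 2, Dpp4 and Fap, and the receptor genes Glp1r and Gcgr. Gcg was chosen by its difference between the genotypes in these same data, where it had the 4th highest log2 fold change of 10361 probe sets. The other symbols were chosen by position or by function. A gene counted as measured where a probe set of the deposited table carried its symbol as the only one, which held for 3 of the 5 symbols (Gcg, Fap and Glp1r) among 9407 symbols in all. Dpp4 and Gcgr are not analysed here.

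The study compared sciatic nerves of Ebf2-/- pups (KO, pools 2 and 4) with those of Ebf2+/+ pups (WT, pools 1, 9 and 11). All pups were on a C57Bl6N background, came from heterozygous parents and were taken at postnatal day 2. The product of Ebf2 is a DNA-binding factor of the EBF (early B cell factor) family. Each pool joined 12 nerves of 1 genotype and was read on 1 Affymetrix array, so a value averages several animals and every cell type of the dissected nerve. How many pups or litters stand behind a pool, and which part of Ebf2 is missing, is not in the labels, and an allele of this kind is absent from all cells rather than from 1 cell type. Values are log2 expression as deposited, and every log2 fold change is KO minus WT from 2 KO and 3 WT pools, with its moderated standard error (SE) from limma. Ebf2 itself read 9.25 and 8.74 in KO pools 2 and 4, against 11.55, 11.14 and 11.40 in WT pools 1, 9 and 11, so every array stood on the side of its label.

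Proglucagon is a prohormone of the secretin family. Prohormone convertases cut it into different peptides in different cells: chiefly glucagon in alpha cells of the pancreatic islet, and glucagon-like peptides 1 and 2 in enteroendocrine L cells of the gut and in neurons of the brainstem. The peptides act through class B G protein-coupled receptors that raise cyclic AMP, among them the glucagon receptor (Gcgr) and the receptor of glucagon-like peptide 1 (Glp1r). Dipeptidyl peptidase 4 (Dpp4) is a cell-surface and plasma enzyme that inactivates glucagon-like peptide 1. Fibroblast activation protein (Fap) is its closest relative, a surface protease of remodelling connective tissue. In the order of RefSeq protein-coding genes (GRCm38.p6), Gcg lies directly between Dpp4 and Fap.

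The sequence before the Gcg start is shown because Gcg is the gene that differed and the factor removed binds DNA. It comes from RefSeq, is written 5′ to 3′ and covers chr2:62483654-62483903 on the minus strand of GRCm38.p6. Capitals mark matches to TATAAA on either strand, at positions -24 to -19 on the gene's strand and -72 to -67 on the other strand, where +1 is the first transcribed base.
Gcg, 250 bases before the start: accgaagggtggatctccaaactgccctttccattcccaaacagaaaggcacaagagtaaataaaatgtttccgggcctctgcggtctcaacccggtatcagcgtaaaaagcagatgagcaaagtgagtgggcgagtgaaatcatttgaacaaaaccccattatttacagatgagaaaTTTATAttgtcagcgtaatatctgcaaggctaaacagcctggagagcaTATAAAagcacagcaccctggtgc

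The core of the DNA motif bound by EBF proteins, CCCNNGGG, reads the same on both strands and occurred once in the RefSeq promoter (250 bases before to 50 after the start) of each of the 4 genes with an entry, Gcg, Dpp4, Glp1r and Gcgr. Each match is shown in 30 bases, with the core in capitals. The Gcg match lies after the start, at positions 39 to 46, and the other 3 lie before it.
Gcg, chr2:62483604-62483633, minus strand: caggacacactcaaagttCCCAAGGGgact
Dpp4, chr2:62412327-62412356, minus strand: aagtgaacattCCCCAGGGaggattaatac
Glp1r, chr17:30901638-30901667, plus strand: cctgagtggagCCCGCGGGgagcacagcgc
Gcgr, chr11:120530625-120530654, plus strand: tctccccctccCCCGCGGGccgctcccgcc

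Of 32851 promoters of the same length, 13.67% hold CCCNNGGG and 13.62% hold TATAAA on either strand. The cyclic AMP response element TGACGTCA is in 1.79% of promoters and in none of these 4, and bases outside these stretches were not searched. Such a match describes letters only and does not show binding.

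Gcg was about 3 times as high in the KO pools. It read 10.94 and 11.12 in KO pools 2 and 4, against 9.69, 8.98 and 9.56 in WT pools 1, 9 and 11 (probe set 10483074). Both KO pools lay above all WT pools, with 1.26 between the lower KO pool and the highest WT pool, which was more than the whole range of the WT pools (0.707). The mean was 11.03 ± 0.12 (SD, n = 2) in KO and 9.41 ± 0.38 (SD, n = 3) in WT, a 3.07-fold difference (log2 fold change 1.62, SE 0.20). The KO pools differed from each other by 0.174. Because this difference chose the gene, it stands as a description with no test. Against WT pool 1 alone the difference was 1.34. In pooled nerves a larger number of cells that make an RNA and more of that RNA in each cell cannot be told apart.

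Fap, the neighbour on the other side of Gcg from Dpp4, was also higher in the KO pools, by a smaller amount, and did not pass. It read 10.59 and 10.74 in KO pools 2 and 4, against 10.38, 9.68 and 9.75 in WT pools 1, 9 and 11. The groups did not overlap, but WT pool 1 lay only 0.211 below the lower KO pool, and the WT pools spanned 0.696. The log2 fold change was 0.73 (SE 0.20, 95% interval 0.31 to 1.14), a 1.65-fold difference, with adjusted p = 0.088 in limma over all probe sets. Against WT pool 1 alone it was 0.29. Fap passed in 3 of 14 alternatives, each of which kept the value and changed the variance estimate or the probe sets tested (adjusted p = 0.0205 to 0.0494 in limma). The difference between the changes of Gcg and Fap was not tested.

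The receptor gene Glp1r did not differ beyond the spread between pools. It read 6.97 and 7.05 in KO pools 2 and 4, against 6.67, 7.05 and 6.99 in WT pools 1, 9 and 11. The groups overlapped, and the log2 fold change was 0.11 (SE 0.17, adjusted p = 0.767 in limma). Its 95% interval was -0.26 to 0.47. Without WT pool 1 the sign turned (-0.01), and against WT pool 1 alone the difference was 0.34. The table holds no detection call, so whether the Glp1r signal is above background is unknown.

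**Figure D1:**
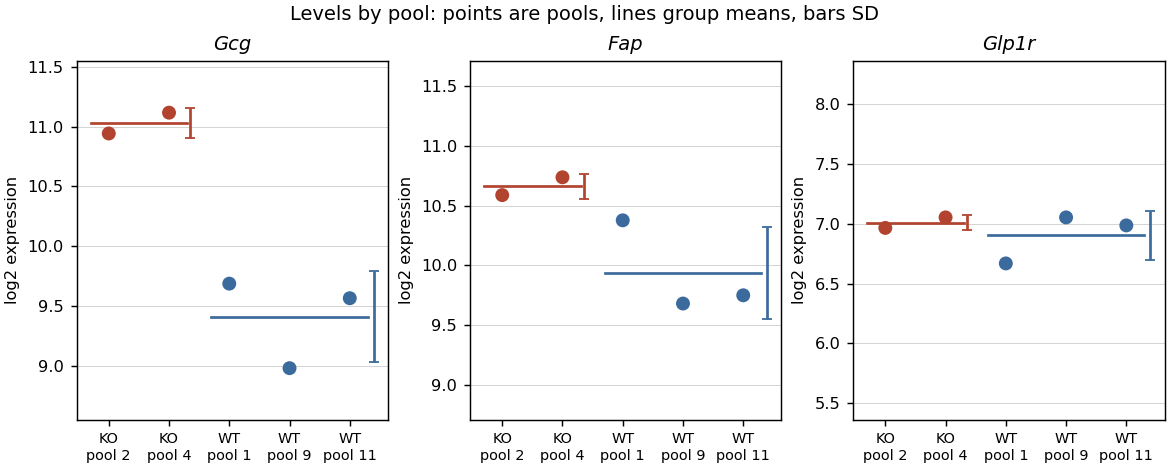
Levels of Gcg, Fap and Glp1r on each array (y axis, log2 expression, each panel spanning the same 3 log2 units), with KO pools at the left and WT pools at the right of each panel; lines are group means and bars 1 SD. The KO points of Gcg stand 1.26 or more above every WT point, those of Fap 0.211 above WT pool 1, and those of Glp1r among the WT points.

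The question of how far the Gcg difference extends along chromosome 2 was addressed with the 20 protein-coding genes on each side of it in RefSeq order. Of these 40 genes 25 were measured, 10 on the Dpp4 side and 15 on the Fap side. Their differences ran from -1.25 (Dapl1) to 0.77 (Acvr1), with 16 higher and 9 lower in KO. Of the 25 neighbours 0 passed adjusted p below 0.05 in limma, beside 0.676% of all probe sets, a share so low that 0 of 25 does not set the stretch apart. Under other processing up to 3 of the 25 passed (Fap, Acvr1 and Dapl1). That was among probe sets with 1 symbol, where 164 of 9411 passed. At unadjusted p below 0.05 in limma there were 9 neighbours (36.0%), against 14.3% of all probe sets. The median was 0.17, or 0.12 against WT pool 1 alone, beside -0.0017 over all probe sets.

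Of the 12 measured genes within 10 places of Gcg, Fap included, 8 were higher and 4 lower in KO. In 5 of the 12 (41.7%) both KO pools lay above all WT pools, against 17.5% of all probe sets. Both lay below in 0 of them, against 13.3% of all probe sets. Next to Gcg and Fap, the measured genes Slc4a10, Ifih1 and Gca had values below 0. On the Dpp4 side the first measured gene, after Dpp4 itself, was Slc4a10, for a bicarbonate transporter of neurons. It read 6.13 and 6.40 in KO pools 2 and 4, against 6.13, 6.38 and 6.34 in WT pools 1, 9 and 11 (log2 fold change -0.02, SE 0.17). These values lay below those of Glp1r, and whether the Slc4a10 signal is above background is likewise unknown. Beyond Fap came Ifih1, for the sensor of viral double-stranded RNA MDA5, with 8.80 and 7.86 in KO pools 2 and 4, against 8.55, 8.40 and 8.31 in WT pools 1, 9 and 11 (log2 fold change -0.09, SE 0.22). For Ifih1 the KO pools lay on opposite sides of the WT pools. For Gca, for the calcium-binding protein grancalcin, KO pool 2 lay within the WT range and KO pool 4 below it, with 8.21 and 7.47 in KO pools 2 and 4, against 8.24, 7.92 and 7.90 in WT pools 1, 9 and 11 (log2 fold change -0.18, SE 0.20).

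Further out, the measured genes up to the 10th place on the Dpp4 side had log2 fold changes from -0.20 for Itgb6, an integrin of epithelia, to 0.33 for Tank, an adaptor of antiviral and NF-kappa-B signalling. Itgb6 had low means (6.05 in KO and 6.25 in WT), and whether its signal is above background is unknown. Rbms1, for an RNA-binding protein, and Cd302, for a C-type lectin, were both at 0.10. On the Fap side Fign, for the microtubule-severing protein fidgetin, was at 0.17, and Grb14, for an adaptor that restrains the insulin receptor, at 0.24. Cobll1 was at 0.51 (SE 0.20, adjusted p = 0.24) and Slc38a11, a putative amino acid transporter, at 0.41 (SE 0.19, adjusted p = 0.328). None of these 12 nearest measured genes passed, Fap included.

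Both extremes of the stretch also separated the WT pools. Acvr1, for a type I receptor of bone morphogenetic proteins and activins, and Dapl1, for an epithelial differentiation protein, were chosen after their values were seen. Acvr1 read 10.20 and 10.44 in KO pools 2 and 4, against 9.95, 9.22 and 9.48 in WT pools 1, 9 and 11 (log2 fold change 0.77, SE 0.20, adjusted p = 0.0702), and was at 0.38 against WT pool 1 alone. Dapl1 read 6.0 and 6.69 in KO pools 2 and 4, against 6.51, 8.43 and 7.84 in WT pools 1, 9 and 11 (log2 fold change -1.25, SE 0.34, adjusted p = 0.0876). Dapl1 was thus high in WT pools 9 and 11 only, and against WT pool 1 alone its difference was -0.16. The 11 keratinocyte markers were also highest in these 2 pools, with means of 7.43 and 7.73 in KO pools 2 and 4, against 7.37, 9.50 and 8.81 in WT pools 1, 9 and 11, and their part in the Dapl1 difference was not tested.

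Non-overlap of the groups was more frequent than a pass. In 9 of the 25 neighbours (36.0%) both KO pools lay above all WT pools, against 17.5% of all probe sets, and in 1 neighbour, the kinase gene Stk39, both lay below, against 13.3% of all probe sets. Of the 9, 5 lay on the Dpp4 side and 4 on the Fap side. In the wider stretch of 50 genes on each side, 54 of 100 genes were measured, 15 of them (27.8%) had both KO pools above all WT pools, 0 passed, and the median was 0.09. No test of the stretch as a whole was made.

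**Figure D2:**
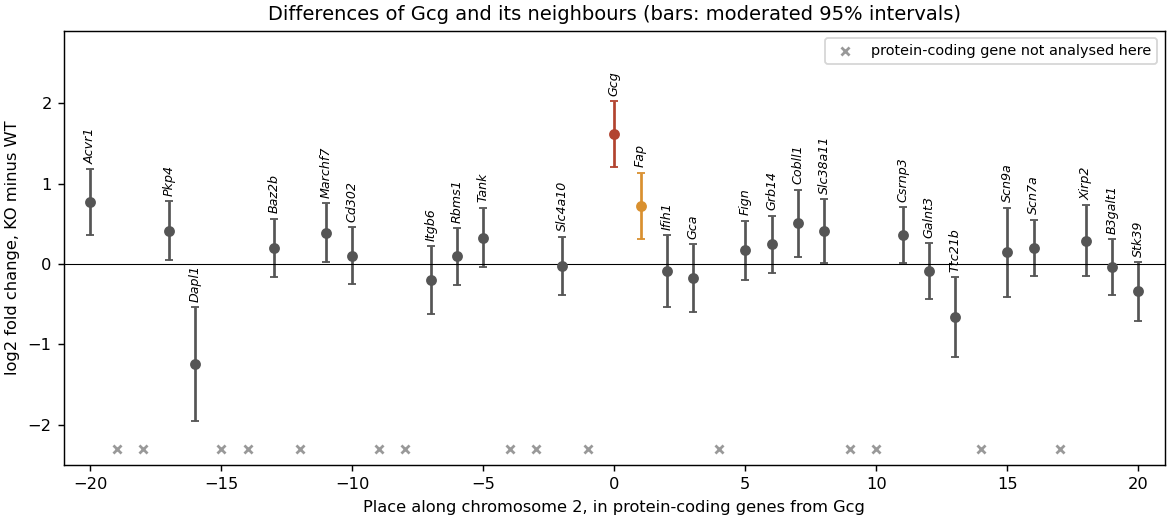
Log2 fold change (KO minus WT, y axis) of each measured gene against its place in protein-coding genes from Gcg along chromosome 2 (x axis, negative on the Dpp4 side), with moderated 95% intervals as bars and crosses for genes not analysed here. Gcg stands at 1.62, its neighbour Fap at 0.73, and the remaining 24 genes between -1.25 and 0.77.

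None of the other measured hormone genes of the family passed, beside 0.676% of all probe sets. At that share 0 passes in lists this short, here and below, do not set a list apart. Over the 61 measured genes of the 8 lists, without the 5 symbols, 0 passed. Of 5 further secretin family ligands 3 were measured and 0 passed, all with values slightly below 0: Gip, for glucose-dependent insulinotropic polypeptide (log2 fold change -0.02, SE 0.17), Ghrh, for growth hormone-releasing hormone (-0.11, SE 0.17), and Adcyap1, for the neuropeptide PACAP (-0.19, SE 0.22). Gip read 7.39 and 7.61 in KO pools 2 and 4, against 7.41, 7.54 and 7.63 in WT pools 1, 9 and 11. In each of the 3 genes the KO pools overlapped the WT pools, and whether their signals are above background is unknown.

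The enzymes that process prohormones showed small differences. Of 14 listed genes of prohormone processing and secretory granules 9 were measured and 0 passed, with 6 higher and 3 lower and a median of 0.10. Cpe, for carboxypeptidase E, which trims the cut peptides, was at 0.32 (SE 0.17, adjusted p = 0.39), and Pam, which amidates peptide ends, at 0.30 (SE 0.18, adjusted p = 0.454). The lowest values were those of the granule proteins Chga, for chromogranin A (-0.14), and Pcsk1n, for the convertase inhibitor proSAAS (-0.10). Pcsk1 and Pcsk2, the convertases known for proglucagon, are not analysed here.

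Transcription factors known from the proglucagon gene in islet and gut were likewise without a pass. Of 16 listed 6 were measured, with 2 higher and 4 lower and a median of -0.11, which turned to 0.17 against WT pool 1 alone. Tcf7l2, an effector of Wnt signalling, had the highest value (0.33, SE 0.17, adjusted p = 0.394), followed by Neurod1 (0.09). Maf, for a leucine zipper factor, had the lowest, with 11.04 and 10.32 in KO pools 2 and 4, against 11.17, 11.34 and 11.24 in WT pools 1, 9 and 11 (log2 fold change -0.57, SE 0.19, adjusted p = 0.172). Both KO pools lay below all WT pools for Maf, mostly through KO pool 4. Isl1, a LIM homeodomain factor that activates the gene in alpha cells, was at -0.11 (SE 0.20).

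Receptors of the class to which Glp1r and Gcgr belong, with the RAMP proteins that associate with some of them, numbered 18 on the list and 7 in the table, and 0 passed (5 higher, 2 lower, median 0.11). Calcrl, for the receptor of calcitonin gene-related peptide and adrenomedullin, had the highest value (0.53, SE 0.21, adjusted p = 0.236). Vipr2, a receptor of vasoactive intestinal peptide and PACAP, followed at 0.17. The lowest were Pth1r, the parathyroid hormone receptor gene (-0.27), and Calcr, the calcitonin receptor gene (-0.03). Of 30 cyclic AMP signalling genes 17 were measured and 0 passed, with 10 higher, 7 lower and a median of 0.11. Pde3a, for a phosphodiesterase that degrades cyclic AMP, was at 0.63 (SE 0.20, adjusted p = 0.136) and Creb3l1, for a membrane-bound bZIP factor, at 0.38, while Creb1, the factor that cyclic AMP signalling activates, was at -0.25 and Crem at -0.20.

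Genes that glucagon induces in liver showed no common direction in these nerves. Of 10 listed 6 were measured and 0 passed, 2 higher and 4 lower, with a median of -0.08. Irs2, for an insulin receptor substrate, was highest at 0.51 (SE 0.20, adjusted p = 0.228), and Sik1, for a salt-inducible kinase, was at 0.24. Ppargc1a, for a coactivator of gluconeogenic and mitochondrial genes, was lowest at -0.36 (SE 0.22) and Nr4a1, for an orphan nuclear receptor, was at -0.29. For Ppargc1a KO pool 4 alone was low, with 9.19 and 8.20 in KO pools 2 and 4, against 9.16, 8.98 and 9.02 in WT pools 1, 9 and 11.

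Among peptide-clipping enzymes the larger differences lay at both ends. Of 14 listed members 8 were measured and 0 passed, with 6 higher and 2 lower and a median of 0.28. Next to Fap stood Anpep, for aminopeptidase N, with 11.50 and 11.74 in KO pools 2 and 4, against 11.37, 10.72 and 10.62 in WT pools 1, 9 and 11 (log2 fold change 0.72, SE 0.20, adjusted p = 0.104). Like Fap, Anpep was close to the KO pools in WT pool 1. Mme, for neprilysin, which degrades glucagon-like peptide 1 among many peptides, went the other way, with 10 and 9.46 in KO pools 2 and 4, against 10.27, 10.77 and 10.48 in WT pools 1, 9 and 11 (log2 fold change -0.78, SE 0.20, adjusted p = 0.0673). Both KO pools lay below all WT pools for Mme, which passed in 4 of 14 alternatives. Of the relatives of DPP4, Dpp7 was at 0.27 and Dpp6, which has lost the enzymatic activity, at -0.18.

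Partners and substrates of DPP4 and FAP had 7 of 20 listed genes measured and 0 passed, with 6 higher and 1 lower. In these 6 genes (85.7% of the 7) both KO pools lay above all WT pools, against 17.5% of all probe sets. A high share was not particular to this list. It was 62.5% among the peptide-clipping enzymes (Fap included), 47.1% for cyclic AMP signalling and 33.3% for prohormone processing. It was 16.7% in the transcription factor and liver lists and 0% among the receptors and the ligands other than Gcg. Over the 61 list genes without the 5 symbols it was 37.7%. The median was 0.34, or 0.15 against WT pool 1 alone. Cxcl10, for a chemokine that DPP4 truncates, was highest, with 8.20 and 9.07 in KO pools 2 and 4, against 8.17, 7.21 and 8.07 in WT pools 1, 9 and 11 (log2 fold change 0.82, SE 0.26, adjusted p = 0.136). KO pool 4 stood well above every other pool there, and KO pool 2 lay just above WT pool 1. Igf2r, for a receptor that binds DPP4, was at 0.48. Cxcl9, for a related chemokine, was lowest at -0.20, followed by the integrin gene Itga3 at 0.25.

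**Figure D3:**
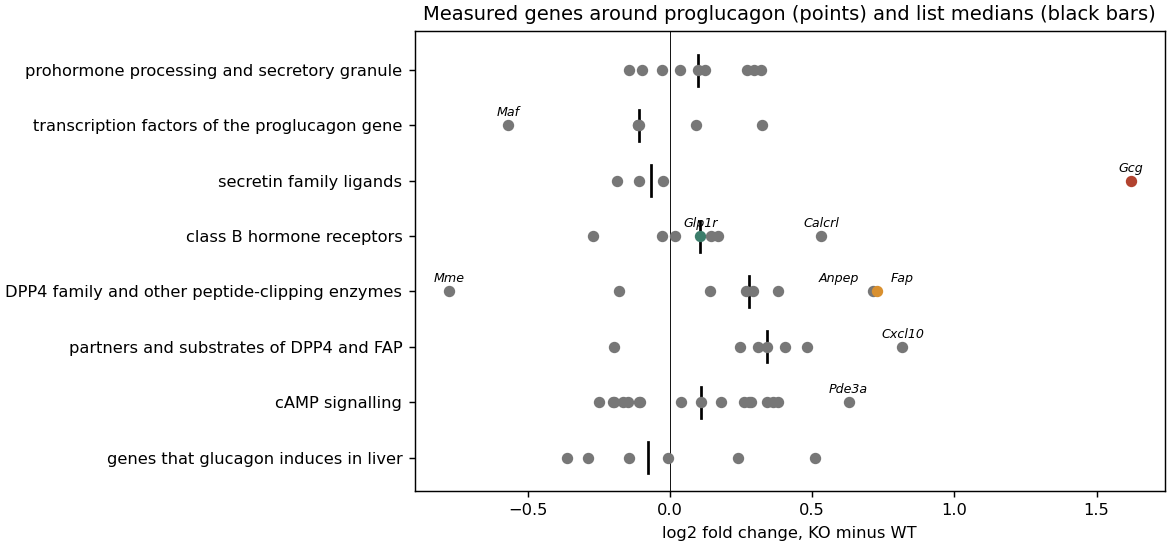
Log2 fold change (KO minus WT, x axis) of every measured gene of the 8 lists (rows), 1 point per gene, with the list median as a black bar. Gcg, chosen for its difference, is at 1.62, and the other points run from -0.78 (Mme) to 0.82 (Cxcl10).

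The genes whose profile over the 5 pools came closest to that of Gcg were Aldh1a2, Moxd1 and Epyc. Likeness was measured as the Euclidean distance between log2 profiles after the mean of each gene was removed, over 9406 genes. These genes were found by the same values that chose Gcg, so the likeness is a description of 5 arrays that share genotype and any difference between pools. Aldh1a2, for an enzyme that makes retinoic acid, read 11.20 and 11.21 in KO pools 2 and 4, against 10.02, 9.35 and 9.74 in WT pools 1, 9 and 11 (distance 0.222, Pearson r = 0.995 over 5 pools). Moxd1, for a monooxygenase related to dopamine beta-hydroxylase, read 9.91 and 10.16 in KO pools 2 and 4, against 8.79, 8.08 and 8.39 in WT pools 1, 9 and 11 (distance 0.231). Epyc, for the cartilage proteoglycan epiphycan, read 11.16 and 11.10 in KO pools 2 and 4, against 9.71, 8.84 and 9.44 in WT pools 1, 9 and 11 (distance 0.289).

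In all 3 genes, as in Gcg, the KO pools were high and close together and WT pool 9 was the lowest. The next 7 places went to Kera, for the proteoglycan keratocan (distance 0.538), Pi15, for a secreted CAP protein (0.654), Fhl2, for a LIM-domain protein (0.671), Glt8d2 (0.701), Lgi2 (0.737), Tgfb2, for a growth factor of the transforming growth factor beta family (0.778), and Epha3, for an ephrin receptor (0.778). Against WT pool 1 alone the differences of Aldh1a2, Moxd1, Epyc, Kera and Pi15 were 1.19 to 1.46, beside 1.34 for Gcg, while those of Fhl2, Lgi2, Tgfb2 and Epha3 were 0.55 to 0.67. WT pool 1 was below the mean of the 5 pools for Gcg and the first 5 genes, and above it for these 4. The step was gradual: Pi15 read 9.46 in WT pool 1, against 8.62 and 8.55 in WT pools 9 and 11. Fap stood at place 71 of 9406 (distance 1.06, Pearson r = 0.905), and Glp1r at place 4035 (distance 1.83).

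**Figure D4:**
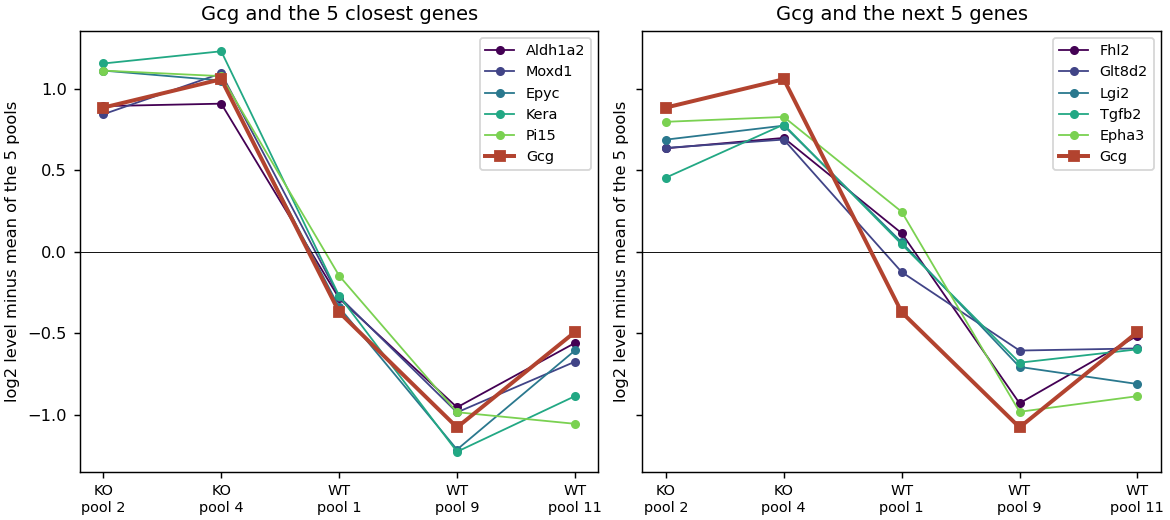
Log2 level of Gcg (thick red) and of the 10 genes closest to it, each minus its mean over the 5 pools (y axis), in KO pools 2 and 4 and WT pools 1, 9 and 11 (x axis); lines only join the points of a gene. In the left panel every gene is below 0 in WT pool 1, least so Pi15, which is well below that level in WT pools 9 and 11. In the right panel 4 of the 5 added genes are above 0 in WT pool 1.

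Markers of cells that make proglucagon elsewhere overlapped between the genotypes. Of 18 islet and enteroendocrine markers 6 were measured (Chga, Isl1, Gip, Cck, Nts and Neurod1), with means of 6.78 and 6.79 in KO pools 2 and 4, against 6.72, 6.93 and 6.76 in WT pools 1, 9 and 11. Their log2 fold changes ran from -0.14 to 0.09 and 0 passed. The defining genes Ins1, Ins2, Sst and Ppy are not analysed here. Of 10 gut epithelium markers 3 were measured, with means of 7.21 and 7.39 in KO pools 2 and 4, against 7.20, 7.27 and 7.41 in WT pools 1, 9 and 11, and 0 passed. Without a detection call, whether low signals in both lists are above background is unknown. Neurod1, for example, had means of 5.32 in KO and 5.23 in WT.

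General fibroblast markers had higher means in both KO pools, and those of Dpp4-positive fibroblasts overlapped between the genotypes. The 5 of 10 markers measured for fibroblasts and matrix (Fap itself, Dcn, Pdgfra, Lum and Fbln1) had means of 12.11 and 12.08 in KO pools 2 and 4, against 11.90, 11.47 and 11.64 in WT pools 1, 9 and 11. All 5 were higher in KO and 0 passed (median 0.45, or 0.26 against WT pool 1 alone). In 4 of the 5 (80%) both KO pools lay above all WT pools, against 17.5% of all probe sets. Of 13 markers of Dpp4-positive adventitial fibroblasts, the connective tissue cells that carry DPP4, 8 were measured without Dpp4, with means of 10.46 and 10.58 in KO pools 2 and 4, against 10.47, 10.35 and 10.27 in WT pools 1, 9 and 11. In that list 5 were higher, 3 lower and 0 passed (median 0.29, or 0.11 against WT pool 1 alone). Both KO pools lay above all WT pools in 4 of these 8 (50%) and below in 2, against 17.5% and 13.3% of all probe sets. The part of these cells in the Fap and Gcg differences was not tested.

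Markers of the labelled tissue were present and skin and muscle RNA differed between the WT pools. The 6 of 10 Schwann cell markers measured had means of 11.49 and 11.11 in KO pools 2 and 4, against 11.73, 11.88 and 11.80 in WT pools 1, 9 and 11, and 2 of them passed in limma, beside 0.676% of all probe sets. Both are genes of myelination and both fell: Egr2 by 1.13 on the log2 scale (SE 0.22, adjusted p = 0.0181) and Mag by 0.99 (SE 0.19, adjusted p = 0.0166). The call held in 4 of 14 alternatives for Egr2 and in 5 for Mag. It was lost for both after median centring or quantile normalization, without moderation, without either KO pool, and without WT pool 1 or 9. The call was lost too against WT pool 1 alone, where the values were -0.95 for Egr2 and -0.76 for Mag. The 14 skeletal muscle markers had means of 11.07 and 11.33 in KO pools 2 and 4, against 10.59, 12.05 and 11.94 in WT pools 1, 9 and 11. WT pool 9, highest in the keratinocyte and muscle means, had the lowest Gcg (8.98), beside 9.56 in WT pool 11 and 9.69 in WT pool 1, and the part of skin and muscle RNA in the Gcg difference was not tested.

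**Figure D5:**
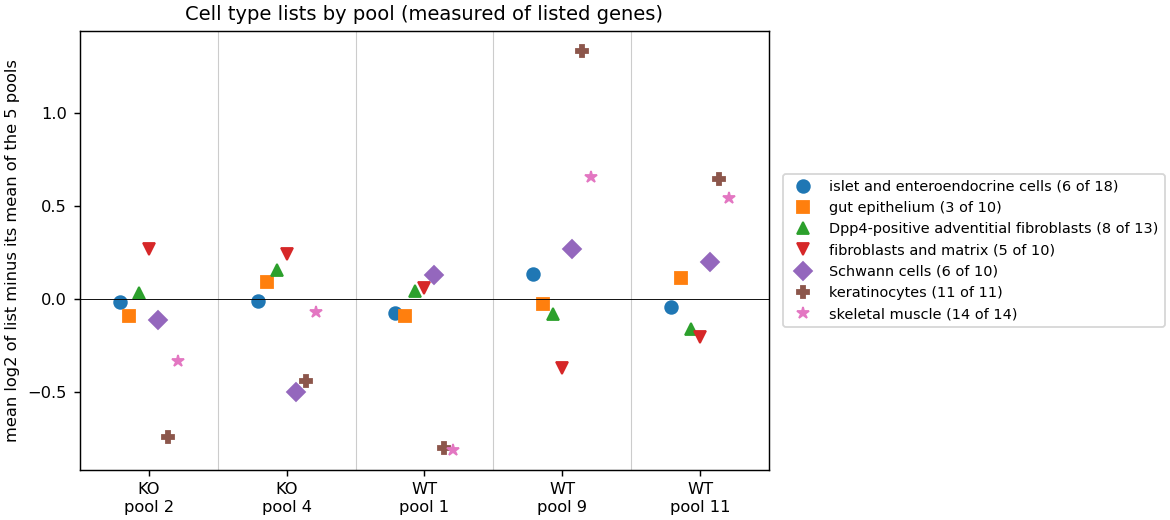
Mean log2 level of each cell type list minus its mean over the 5 pools (y axis), for KO pools 2 and 4 and WT pools 1, 9 and 11 (x axis); the legend gives measured of listed genes. Keratinocyte and muscle lists stand high in WT pools 9 and 11, the fibroblast list is highest in the KO pools, and the islet list stays within 0.21 across all pools.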

How the data were processed

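The deposited values are log2 expression per probe set and array, made by the authors with RMA per the submitters' processing notes; its version, its settings and the build of the array design were not given in the sources used here. Sorted by level, the second-highest of a probe set's 5 values lay 0.175 or more above its lowest in all 10361 probe sets, as a filter on spread would leave. The table therefore cannot show the genes that varied least. Array medians ran from 8.93 to 9.11. Gene names came from the 2016 annotation of the platform (9411 with 1 symbol, 384 with several, 566 unlisted), and the probe set with the highest mean stood for a symbol. Gene order came from RefSeq, matched on gene identifiers.

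Genotypes were compared over all probe sets with limma 3.58.1 in R 4.3.3 (lmFit, eBayes, two-sided, Benjamini-Hochberg, called at adjusted p below 0.05), with 3 residual and 17.4 prior degrees of freedom. The fit was tested on simulated data. The 5 arrays limit precision, and p-values reflect the spread among these pools alone, which may be partly technical. The members and gene lists were chosen with earlier results of these data known. The genes named are the 5 symbols, the measured genes among the 10 nearest on each side, the 2 highest and 2 lowest and any called members of each list, and the 10 genes closest to Gcg. Acvr1, Dapl1, Stk39 and Dpp7 are named outside this rule, as are Ebf2 and the cell type markers. Alternatives changed the normalization, moderation, filter, WT pools and window.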

Additional observations from a re-analysis of the deposited data

How the results depend on the processing

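In 14 alternatives Gcg stayed higher in KO, with log2 fold changes from 1.34 to 1.76 (1.40 to 1.76 when 1 pool was left out). The adjusted p of Gcg in limma was below 0.05 in 5 of them and not in 9. This count is no test either, because the difference chose the gene. The 70 calls over all 10361 probe sets became 158 with a variance trend, 148 with robust moderation and 105 without WT pool 11. Above the 50th percentile of mean level 287 of 5180 probe sets passed, and among those with 1 symbol 164 of 9411. There was 1 call, each time, with arrays centred on their median, with quantile normalization or without WT pool 9, 6 calls without WT pool 1, and 0 without moderation (498 at unadjusted p below 0.05), without either KO pool (2309 and 327 without pools 2 and 4) or against WT pool 1 alone (286 at unadjusted p with a block for pools 9 and 11, 127 with these pools left out).

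Fap kept its direction (0.29 to 0.95, and 0.60 to 0.95 when 1 pool was left out) and passed, at 0.73, with robust moderation, above the 50th percentile and among probe sets with 1 symbol. Glp1r ranged from -0.0105 to 0.18 when 1 pool was left out, and was at 0.34 against WT pool 1 alone. Of the neighbours, 0 to 1 passed when 1 WT pool was left out (Dapl1 without WT pool 11), and 0 in windows of 10 or 50 genes. With a trend 2 passed (Acvr1 and Dapl1), with robust moderation 2 (Acvr1 and Fap), and among probe sets with 1 symbol 3. Above the 50th percentile, where 13 neighbours were tested, 2 passed (Acvr1 and Fap). Of the 61 list genes, 0 to 1 passed when 1 WT pool was left out (Cxcl10 without WT pool 11) and 2 with a trend (Mme and Anpep). Mme alone passed with robust moderation and among probe sets with 1 symbol. Above the 50th percentile, where 32 list genes were tested, 3 passed (Mme, Anpep and Pde3a).

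The sign of 17 of 55 other named genes, all small and uncalled, turned in at least 1 alternative, and the cause was not tested. Against WT pool 1 alone these were Itgb6 (0.14), Rbms1 (-0.0515), Slc4a10 (0.13), Fign (-0.0715), Chga (0.24), Pcsk1n (0.11), Isl1 (0.23), Adcyap1 (0.29), Gip (0.0935), Calcr (0.19) and Dpp6 (0.36). After median centring they were Slc4a10 (0.0393), Gip (0.0347) and Calcr (0.0308), and after quantile normalization Gip (0.0212). With 1 pool left out the ranges were -0.37 to 0.034 for Itgb6, -0.16 to 0.12 for Slc4a10, -0.56 to 0.38 for Ifih1, -0.55 to 0.20 for Gca, -0.33 to 0.12 for Chga, -0.21 to 0.0123 for Pcsk1n, -0.28 to 0.12 for Isl1, -0.42 to 0.0945 for Adcyap1, -0.23 to 0.0143 for Ghrh, -0.13 to 0.084 for Gip, -0.14 to 0.0475 for Calcr, -0.45 to 0.15 for Dpp6, -0.57 to 0.17 for Crem, -0.85 to 0.13 for Ppargc1a and -0.58 to 0.00333 for Nr4a1. Without KO pool 4 the values of Ifih1, Gca, Crem, Ppargc1a and Nr4a1 were the ones above 0. The filter on mean level left no value for Glp1r. No paired analysis was possible because the pools of KO and WT share no number. With 2 against 3 arrays an exact permutation test of 1 gene that doubles the smaller tail cannot go below p = 0.2.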
